A study of Mus musculus with 7 samples.

Results

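The nuclear pore complex and the carriers that pass through it were examined in cardiomyocytes of the postnatal mouse heart, in 57 of the 23337 genes of the deposited count table. Members were chosen by symbol: genes that begin with Nup, Ipo, Xpo or Kpn and go on with a number or subunit code, together with 13 further named genes such as Ran, Rangap1, Tpr and Sec13. A total of 56 were found under those symbols, and Ndc1 was found as Tmem48, an older name for it in RefSeq. RNA was sequenced from cells sorted at postnatal day 6 (P6, 4 libraries, P6a to P6d) and day 30 (P30, 3 libraries, P30a to P30c). Both groups are labelled Rosa-Tom/Cas9 and both were given AAV9-cTNT-Cre, a virus that drives Cre from the cardiac troponin T promoter, on day 1. Older cells had therefore carried the virus for longer, and age and time after injection cannot be told apart. The labels do not give the allele of single mice, or say whether libraries came from separate animals, so a p-value reflects only how far these libraries differ, which may be technical. Cells were freed by retrograde collagenase perfusion and sorted by flow cytometry, and their RNA was amplified with a SMART-Seq kit before sequencing. The treatment text of the labels puts collection at P14, against P6 and P30 in the titles and ages, which were used here.

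Nuclear pores are channels in the nuclear envelope built from nucleoporins in several rings, with flexible phenylalanine-glycine repeats in the middle that hold back large molecules. Importins and exportins bind a cargo's localisation or export signal and carry it through these repeats. The GTPase Ran sets the direction: it is charged with GTP in the nucleus, where it unloads importins and loads exportins, and it hydrolyses GTP in the cytoplasm. In dividing cells the envelope and its pores come apart and are built again at each mitosis, and Ran and importins also act on the spindle, whereas in cells that no longer divide scaffold nucleoporins are known for very slow turnover.

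Libraries held 10594932 to 51427646 counts, and 3 counts stood for 0.0553 to 0.271 CPM (counts of a gene per 1e+06 counts of its library, after TMM scaling). Summed levels of 8 cardiomyocyte markers ran from 78100 to 97900 CPM at P6 and from 116000 to 124000 CPM at P30. Of these 8, 4 were called higher and 0 lower, and Myh6 alone went from a mean of 33640 to 57300 CPM. Markers of other cells were far lower and moved with age. The 6 endothelial markers summed to 65.9 to 125 CPM at P6 and 226 to 445 CPM at P30, with 5 of 6 past the test and higher at P30; the 6 leukocyte markers measured summed to 1.73 to 3.71 and 9.82 to 29.0 CPM, with 4 of 4 tested higher. Fibroblast markers (7) gave 155 to 381 and 133 to 303 CPM with 1 of 6 tested lower, smooth muscle and pericyte markers (5) 61.1 to 106 and 99 to 143 CPM with 3 higher and 1 lower, and erythroid genes at most 1.27 CPM, with Hba-a1 and Hba-a2 at 0 counts in all libraries. Hbb-bs was not among the counted genes and 0 erythroid genes were tested, so this value rests on Alas2 alone. How reads that match more than 1 place were counted was not given, so the 0 counts cannot show that red-cell RNA was absent. The 10 markers of proliferating cells summed to 338 to 468 CPM at P6 and 12.6 to 32.4 CPM at P30, and 10 of 10 fell. In such bulk samples fewer cells of a type and less RNA per cell cannot be told apart, and the part of these shifts in the results below was not tested.

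Nuclear transport genes did not move as one block between P6 and P30. The carriers mostly rose, 3 of the 4 Ran cycle members fell, and the structural genes of the pore went both ways by small amounts. Of 57 members, 53 had enough counts to be tested. At a Benjamini-Hochberg adjusted p under 0.05 in edgeR's quasi-likelihood fit of the whole table, 19 were higher at P30 (35.8%, where 26.3% of all 12561 tested genes were) and 12 lower (22.6%, against 27.8% of all). The 31 called made up 58.5%, close to the 54.1% called over all genes, so the number of calls does not set the members apart. Their changes were small: 2 members were called higher by a log2 fold change of at least 1, against 10.6% of all genes, and 1 lower by that much, against 12.4%. The median absolute log2 fold change was 0.41 among members and 0.52 among all tested genes. CPM did not overlap between the ages in 34 of 53 members, against 56.6% of all genes. When libraries were scaled by their totals instead of TMM factors, the median of all genes moved from -0.02 to -0.20 on the log2 scale, and 13 members were higher and 20 lower.

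**Figure D1:**
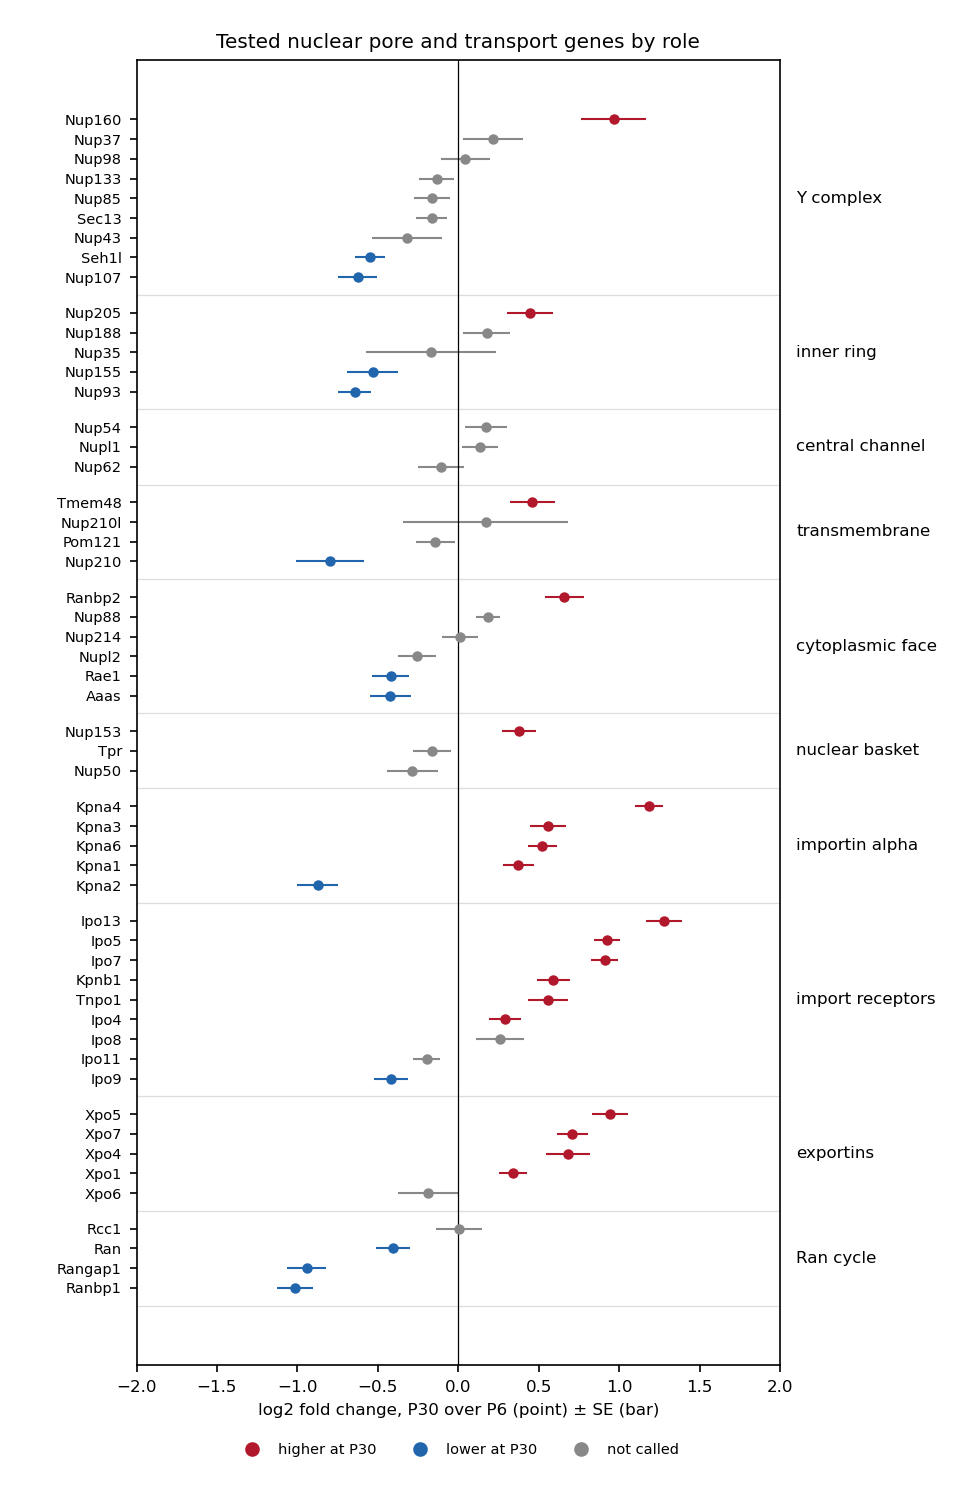
Log2 fold change (P30 over P6, horizontal axis) of each of the 53 tested members, with bars of ± 1 SE, grouped by role and coloured by the edgeR call. Importin alpha genes, import receptors and exportins lie mostly to the right of 0, the Ran cycle lies at or to the left of it, and the pore groups straddle it, with changes between -0.80 and 0.97.

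Taken by role, the 30 tested members of the pore itself gave 5 higher (16.7%) and 7 lower (23.3%), against 26.3% and 27.8% of all tested genes. Their median log2 fold change was -0.14, and library totals gave 2 higher and 14 lower. Their summed level was 1183, 1189, 1235 and 1200 CPM in P6a to P6d and 1201, 1137 and 1161 CPM in P30a to P30c, so the sums overlapped between the ages. The 19 tested carriers (importin alpha genes, import receptors and exportins) gave 14 higher (73.7%) and 2 lower (10.5%), with a median of 0.56. They summed to 1292 to 1416 CPM at P6 and 1869 to 2036 CPM at P30, a ratio of 1.42. Their transcripts are long (median 5081 bases, against 3202 for all tested genes), and with a smooth trend of counts on transcript length removed from each library 13 were higher and 3 lower, with a median of 0.36. The 4 Ran cycle genes gave 3 lower (75.0%) and 0 higher (0 also at an unadjusted p under 0.05 and by DESeq2). They summed to 261 to 295 CPM at P6 and 173 to 185 CPM at P30, a ratio of 0.645.

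The Y complex is the outer scaffold ring of the pore, and 3 of the 9 members placed in it passed the test (33.3%, against 54.1% of all tested genes). Ahctf1 (ELYS), a further subunit that the symbol rule does not take in, was counted among the other transport factors. It rose by 0.38 ± 0.11 (adjusted p = 0.016), with no overlap of the ages. Seh1l, a small propeller subunit that also acts in nutrient signalling to mTORC1, had 82.3, 72.6, 80.9 and 86.5 CPM at P6 and 55.5, 51.5 and 58.2 CPM at P30. All 3 P30 libraries lay below the lowest P6 library, a log2 fold change of -0.55 ± 0.10 (SE), adjusted p = 0.00099. Nup107, which names the complex, fell by 0.62 ± 0.12 on the log2 scale, from 29.5 ± 3.24 (SD, n = 4) to 19.2 ± 0.991 CPM (SD, n = 3). Nup160, another scaffold subunit of the same complex, went the other way. It had 15.3, 12.9, 9.97 and 8.44 CPM at P6 and 25.4, 19.1 and 23.6 CPM at P30, with no overlap, and rose by 0.97 ± 0.20 (adjusted p = 0.0029). Subunits of 1 complex thus moved in opposite directions: Seh1l had 5.38 to 10.2 times the counts of Nup160 in the P6 libraries and 2.18 to 2.70 times at P30, a ratio free of library scaling and chosen after the values were seen. The other 6 members did not pass, with log2 fold changes from -0.32 (Nup43) to 0.22 (Nup37). Per transcript length the levels of the complex were uneven. Sec13, which also coats vesicles that leave the endoplasmic reticulum, had 87.5 CPM per kb at P6 and 78.0 at P30, and Nup160 had 2.05 and 3.99 CPM per kb.

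The inner ring holds the pore to the membrane and carries the channel proteins. Nup93, its organising subunit, had 60.7, 56.0, 56.0 and 55.3 CPM at P6 and 32.9, 36.1 and 40.4 CPM at P30. The ages were well separated, at a log2 fold change of -0.64 ± 0.10 (adjusted p = 0.00055). Nup155, which contacts the membrane and whose loss is linked to atrial fibrillation, fell from 24.6 ± 3.66 to 17.0 ± 2.57 CPM, and the call was lost without P30b or without P30c (adjusted p up to 0.067). Nup205, a large scaffold protein that binds Nup93, had 25.42, 31.0, 25.01 and 25.15 CPM at P6 and 43.9, 33.5 and 31.4 CPM at P30. The groups came close to touching, at 31.0 and 31.4 CPM, and the rise of 0.44 ± 0.14 (adjusted p = 0.025) no longer passed when P6a, P6c, P6d or P30a was left out, with library totals and with the length trend removed (adjusted p up to 0.17). Its paralog Nup188 (0.18 ± 0.15) and the low-count Nup35 (1.69 ± 0.683 and 1.48 ± 0.264 CPM) did not pass. A near copy of Nup35, Gm4353, matches 99.2% of its transcript at 95% identity or more in GENCODE, so its counts are uncertain.

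In the central channel, whose repeats form the permeability barrier, 0 of 3 tested genes passed (0 also at an unadjusted p under 0.05 and by DESeq2). Over all tested genes 54.1% passed. Nup62 had 63.5 ± 10.7 and 59.1 ± 6.91 CPM, Nup54 14.1 ± 1.26 and 15.9 ± 1.26, and Nupl1 (also called Nup58) 30.3 ± 2.996 and 33.3 ± 1.42 CPM, each with overlapping ages. Counts of Nup54 and Nupl1 are uncertain, since the processed pseudogene Gm15790 matches 53.3% of the Nup54 transcript at 95% identity or more and exons of Gm49336 overlap 48.8% of Nupl1 on the same strand. Nup62cl had at most 2 counts in a library and was not tested.

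Among membrane-spanning nucleoporins 1 rose and 1 fell. Nup210, a lumenal protein that is known to be switched on in muscle and neural differentiation, had 14.5, 24.4, 19.0 and 14.3 CPM at P6 and 11.7, 10.9 and 8.84 CPM at P30. All P30 values lay under the P6 values, at a log2 fold change of -0.80 ± 0.21 (adjusted p = 0.010). Tmem48 (Ndc1), which anchors new pores in the membrane, had 19.4, 22.4, 22.9 and 18.4 CPM at P6 and 29.7, 24.0 and 32.4 CPM at P30. Its rise of 0.46 ± 0.14 (adjusted p = 0.018) had no overlap of the ages but was lost without P30a, without P30c and with library totals (adjusted p up to 0.13). Pom121, whose exons overlap those of Nsun5 on the opposite strand over 11.9% of their length, did not pass (-0.14 ± 0.12), and Nup210l, a relative of Nup210, stayed under 1 CPM in all libraries.

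The cytoplasmic face is where exported messenger RNA is released and where Ran is made to hydrolyse GTP. Ranbp2 (Nup358), the giant filament protein that docks Rangap1 and acts as a SUMO ligase, had 68.2, 75.5, 64.1 and 69.1 CPM at P6 and 132, 96.2 and 100 CPM at P30. Its rise of 0.66 ± 0.12 (adjusted p = 0.0014) became 0.41 ± 0.10 with the length trend removed, and still passed. Rae1, a messenger RNA export factor that also guards the spindle checkpoint, fell from 71.5 ± 8.44 to 53.5 ± 4.17 CPM, and Aaas (aladin, the triple A syndrome gene) from 22.0 ± 1.11 to 16.5 ± 2.30 CPM. Both calls were lost without P30a and with the length trend removed, and that of Aaas also without P30b (adjusted p up to 0.055 for Rae1 and 0.089 for Aaas). Nup88 was narrow within each age, with 115 to 119 CPM at P6 and 129 to 137 CPM at P30, and the ages did not overlap. Its log2 fold change of 0.18 ± 0.07 had an adjusted p of 0.059 in edgeR and passed in DESeq2, with median-of-ratios factors in edgeR and with the length trend removed. It did not pass without the count filter or in any of the 7 fits with 1 library left out, and with library totals the log2 fold change was 0.00 (adjusted p = 0.98). Nup214, the partner of Nup88, had 37.7 ± 4.33 and 38.0 ± 0.584 CPM, and Nupl2 a log2 fold change of -0.26 ± 0.12 (adjusted p = 0.089).

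At the nuclear basket, which faces the chromatin, Nup153 rose and the others did not pass. Nup153 had 45.4, 41.1, 43.8 and 36.1 CPM at P6 and 52.4, 58.4 and 51.8 CPM at P30, a rise of 0.38 ± 0.11 (adjusted p = 0.013) that was lost without P30b, with library totals and with the length trend removed (adjusted p up to 0.16). Tpr, the filament of the basket, had 121 ± 14.9 and 108 ± 10.4 CPM, and Nup50, a Ran and importin cofactor, 23.2 ± 2.35 and 19.1 ± 3.97 CPM.

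The plot of CPM in every library shows the genes described one by one.

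**Figure D2:**
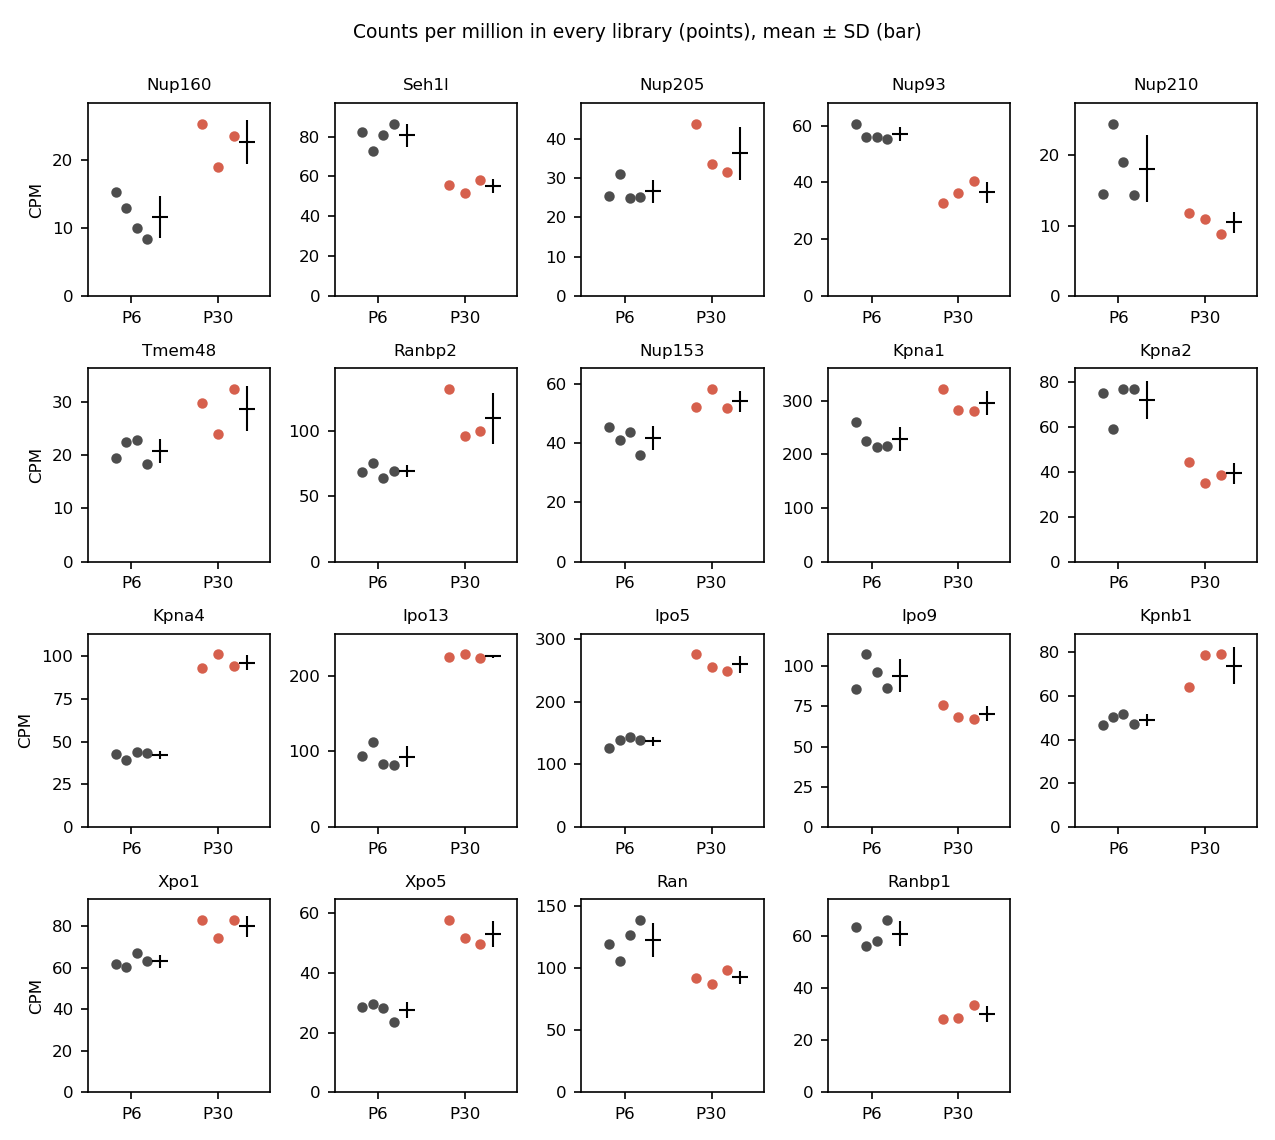
CPM (vertical axes, from 0) of 19 members in each of the 4 P6 and 3 P30 libraries (points), with mean ± SD (bars). All 19 were called in the test, and most were chosen for that, so their separation is largely a result of the choice. The ages do not overlap in any panel, against 34 of 53 tested members and 56.6% of all tested genes. They come closest in Nup205, at 31.0 CPM in P6b and 31.4 CPM in P30c, and in Tmem48, at 22.9 CPM in P6c and 24.0 CPM in P30b.

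Importin alpha proteins are the adaptors that read the classical nuclear localisation signal and bring the cargo to importin beta. All 5 tested subtypes passed (100%, against 54.1% of all tested genes), 4 of them upward, and Kpna2 was the 1 that fell. Kpna4 (importin alpha 3) had 42.8, 39.0, 43.8 and 43.2 CPM at P6 and 92.9, 101 and 94.1 CPM at P30. The 2 ages were tightly grouped and far apart, at a log2 fold change of 1.19 ± 0.09 and an adjusted p of 6.3e-06. Kpna2 (importin alpha 1), known for high expression in dividing and stem cells, had 75.3, 59.3, 76.9 and 77.1 CPM at P6 and 44.4, 35.1 and 38.5 CPM at P30. It fell by 0.87 ± 0.13 (adjusted p = 0.00037) while the 10 markers of proliferating cells fell with it, and the part of dividing cells in this was not tested. In GENCODE the protein-coding gene Gm10184 matches 95.8% of the Kpna2 transcript at 95% identity or more, and 3 processed pseudogenes match 64.9% to 77.4% of it, so its counts may be split. Kpna1, the most counted importin alpha, had 261, 224, 214 and 215 CPM at P6 and 322, 283 and 282 CPM at P30. Its rise of 0.37 ± 0.10 (adjusted p = 0.0094) was lost with library totals (adjusted p = 0.12). Kpna3 and Kpna6 rose by 0.56 ± 0.11 and 0.52 ± 0.09. Kpna7, a subtype of eggs and early embryos, had 9 counts in P30a and 0 in the other 6 libraries and was not tested.

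Shares of all importin alpha counts, which need no scaling between libraries, showed the same exchange. Kpna2 made up 14.2%, 13.0%, 16.7% and 15.9% at P6 and 6.46%, 5.67% and 6.36% at P30. Kpna4 went from 8.04%, 8.53%, 9.48% and 8.93% to 13.5%, 16.3% and 15.6%. In both the ages were apart, and the ratio of Kpna2 to Kpna4 counts went from 1.71 ± 0.124 (SD, n = 4) to 0.411 ± 0.0652 (SD, n = 3). Kpna1 kept a share of 47.2% ± 2.21 and 46.4% ± 0.581, with overlapping libraries. Per transcript length Kpna4 is less prominent, since its longest coding transcript has 8819 bases against 2054 for Kpna2: it had 4.79 and 10.9 CPM per kb at P6 and P30, and Kpna2 35.1 and 19.2 CPM per kb.

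**Figure D3:**
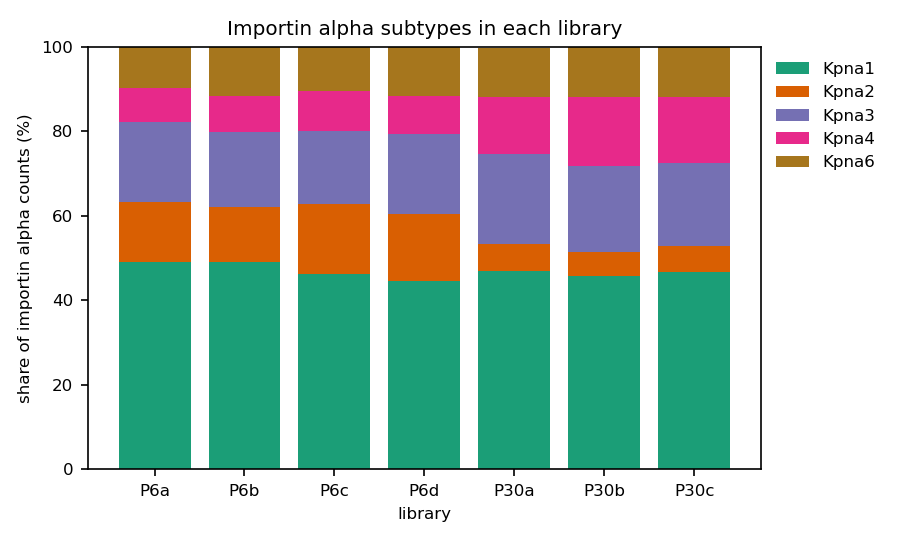
Share of importin alpha counts (vertical axis, percent, stacked) held by Kpna1, Kpna2, Kpna3, Kpna4 and Kpna6 in each library. The Kpna2 band is 13.0% to 16.7% wide in the P6 libraries and 5.67% to 6.46% in the P30 libraries, and the Kpna4 band widens from at most 9.48% to at least 13.5%.

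Import receptors of the importin beta family bind Ran and the pore directly. Of 9, 6 rose (66.7%, against 26.3% of all tested genes) and 1 fell (11.1%, against 27.8%). Ipo13, which imports the ubiquitin ligase Ubc9 and the exon junction proteins and also exports cargo, had 93.5, 112, 83.6 and 82.4 CPM at P6 and 225, 228 and 224 CPM at P30. This was the largest rise among the tested members, 1.28 ± 0.11 on the log2 scale (adjusted p = 1.9e-05), and the 3 P30 libraries differed by little. Ipo5, an importer of ribosomal proteins and histones, had 126, 139, 144 and 139 CPM at P6 and 276, 255 and 250 CPM at P30, a rise of 0.93 ± 0.08 (adjusted p = 1.9e-05). Ipo7, which also carries ribosomal proteins and linker histone, rose from 60.5 ± 1.68 to 114 ± 7.99 CPM, and its close relative Ipo8 did not pass (0.26 ± 0.15). Kpnb1 (importin beta itself) had 46.8, 50.3, 51.9 and 46.9 CPM at P6 and 64.0, 78.6 and 79.0 CPM at P30, with no overlap, and rose by 0.59 ± 0.10 (adjusted p = 0.0010). Tnpo1 (transportin, the importer of several RNA-binding proteins) rose by 0.56 ± 0.13, or by 0.34 ± 0.11 with the length trend removed; the processed pseudogene Gm6493 matches 31.3% of its transcript. Ipo4 rose by 0.29 ± 0.10 but missed the threshold when P6a, P6c, P6d, P30a or P30b was left out, and with library totals (adjusted p up to 0.43). Exons of Ipo4 overlap those of Gm49378 on the same strand over 55.3% of their length, so its counts are uncertain. Ipo9, an importer of histones and actin, was the exception. It had 85.8, 107, 96.5 and 86.7 CPM at P6 and 76.0, 68.3 and 67.2 CPM at P30, and fell by 0.42 ± 0.11 (adjusted p = 0.0078). Ipo11 had 62.0 ± 2.103 and 54.1 ± 1.84 CPM with an adjusted p of 0.070.

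Of 5 exportins 4 rose, and 0 fell (0 also at an unadjusted p under 0.05 and by DESeq2). Over all tested genes 26.3% were called higher and 27.8% lower. Xpo5, which exports precursors of microRNA, had 28.5, 29.5, 28.2 and 23.6 CPM at P6 and 57.7, 51.5 and 49.5 CPM at P30. It rose by 0.94 ± 0.11 (adjusted p = 0.00010), with the ages far apart. Xpo1 (CRM1), the general exporter of proteins with leucine-rich signals, had 61.7, 60.1, 67.2 and 63.2 CPM at P6 and 83.0, 74.0 and 82.6 CPM at P30. Its smaller rise of 0.34 ± 0.09 (adjusted p = 0.0086) was lost with library totals and with the length trend removed (adjusted p up to 0.13). Xpo7 and Xpo4, other carriers of the family, rose by 0.71 ± 0.10 and 0.68 ± 0.14; with the length trend removed the rise of Xpo7 was 0.36 ± 0.089 and still passed. Xpo6, the exporter of actin with profilin, was uneven at P6, with 108 and 119 CPM in P6a and P6b and 76.9 and 66.0 CPM in P6c and P6d, and had 77.6 to 84.3 CPM at P30, within the P6 range (log2 fold change -0.19 ± 0.19).

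Of the 4 Ran cycle members 3 fell (75.0%, against 27.8% of all tested genes), and Rcc1 did not pass. Ran-linked genes outside the members went different ways. Rangrf rose by 0.91 ± 0.13 (adjusted p = 0.00038), with no overlap of the ages. Nutf2 (0.04 ± 0.10) and Ranbp3 (-0.09 ± 0.08) did not pass, and the exportin relative Ranbp17 fell (-1.75 ± 0.28). Ran had 120, 106, 127 and 139 CPM at P6 and 92.3, 87.3 and 98.1 CPM at P30, and fell by 0.41 ± 0.11 (adjusted p = 0.0088). Ranbp1, which helps to strip Ran-GTP from carriers in the cytoplasm, had 63.3, 55.8, 57.7 and 66.0 CPM at P6 and 28.1, 28.4 and 33.5 CPM at P30. This was the deepest fall among the tested members, a log2 fold change of -1.02 ± 0.11 (adjusted p = 6.3e-05), or -0.71 ± 0.088 with the length trend removed. Exons of Gm49776 overlap 16.9% of Ranbp1 on the same strand, and the processed pseudogene Gm13461 matches 26.9% of the Ran transcript, so part of both counts is uncertain. Ranbp1 counts fell against those of Ran too, from 0.497 ± 0.0368 to 0.324 ± 0.0186 counts per Ran count. Rangap1, the GTPase-activating protein held at the pore by Ranbp2, fell from 77.3 ± 10.4 to 40.3 ± 1.64 CPM, by 0.94 ± 0.12 (adjusted p = 0.00016), while Ranbp2 rose. Rcc1, the chromatin-bound exchange factor that charges Ran, had 15.1 ± 0.893 and 15.2 ± 2.36 CPM and a log2 fold change of 0.01 ± 0.14. The 10 proliferation markers fell together with these genes, and the part of dividing cells in the falls was not tested.

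**Figure D4:**
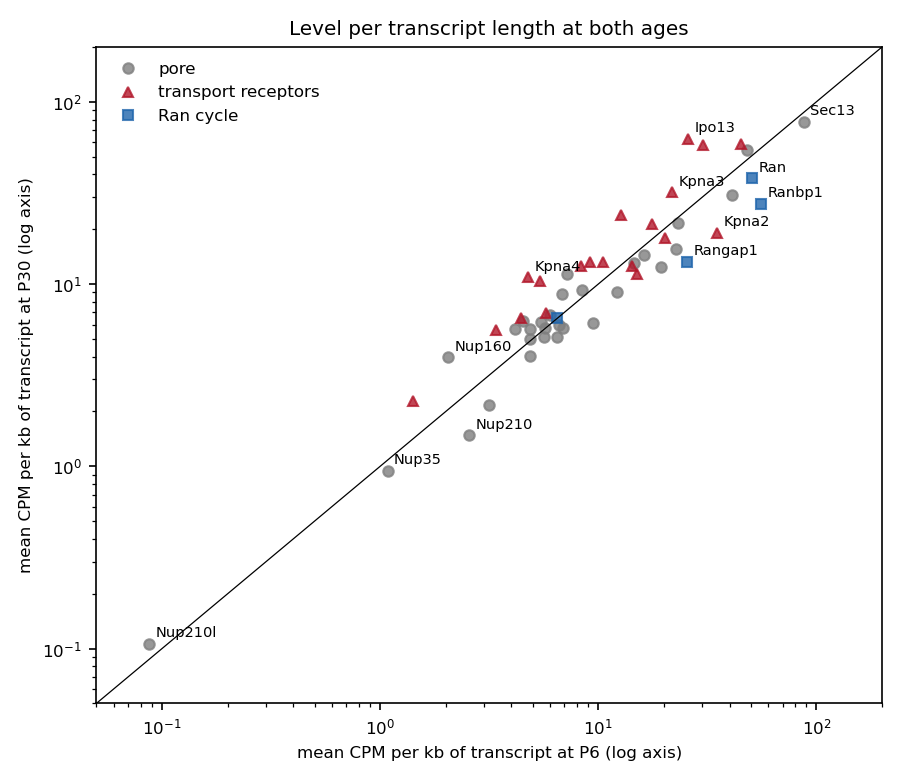
Mean CPM per kb of the longest coding transcript at P6 (horizontal, log axis) and P30 (vertical, log axis) for the 53 tested members, with the line of equality. Most carriers (triangles) lie above the line, 3 of 4 Ran cycle genes (squares) below it, and pore genes (circles) on both sides, from 0.0872 CPM per kb at P6 for Nup210l to 87.5 for Sec13.

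In GENCODE annotation of GRCm38, Ipo13 lies on chromosome 4 (117894486 to 117914999, minus strand), Kpna4 on chromosome 3 (69067149 to 69127113, minus), Nup160 on chromosome 2 (90677215 to 90736328, plus), Ranbp1 on chromosome 16 (18239784 to 18248732, minus) and Kpna2 on chromosome 11 (106988629 to 106999541, minus).

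Promoter sequences from RefSeq (GRCm38.p6, the assembly of mm10) were read for 46 of the 57 members, some with more than 1 start. The 250 bases before each start are shown for 4 of the genes that hold matches to the motifs searched. These are Kpna2 and Ranbp1 among those that fell and Kpna4 and Xpo5 among those that rose. Ipo13, with the largest rise, and Rangap1, which fell by more than Kpna2, held no match in this window and are not shown. Ran, which also fell, held an E-box and NRF1 matches and is not shown either. The windows of Kpna2, Ranbp1, Kpna4 and Xpo5 lie at chr11:106999526-106999775 (minus strand), chr16:18248695-18248944 (minus), chr3:69127093-69127342 (minus) and chr17:46202561-46202810 (plus). Capitals mark exact matches, on either strand, to the CCAAT box (CCAAT), the cell cycle homology region (CHR, TTTGAA), E2F elements (TTTCCCGC or TTTGGCGC), the E-box (CACGTG) and the core of the NRF1 element (GCATGCGC). In Xpo5 the NRF1 matches on both strands overlap and form 1 longer run each time; no other marked matches overlap.
Kpna2 promoter: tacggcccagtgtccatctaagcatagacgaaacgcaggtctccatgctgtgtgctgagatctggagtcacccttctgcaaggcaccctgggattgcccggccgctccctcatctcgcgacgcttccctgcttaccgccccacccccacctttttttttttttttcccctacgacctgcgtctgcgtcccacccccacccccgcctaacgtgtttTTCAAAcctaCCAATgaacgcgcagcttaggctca
Ranbp1 promoter: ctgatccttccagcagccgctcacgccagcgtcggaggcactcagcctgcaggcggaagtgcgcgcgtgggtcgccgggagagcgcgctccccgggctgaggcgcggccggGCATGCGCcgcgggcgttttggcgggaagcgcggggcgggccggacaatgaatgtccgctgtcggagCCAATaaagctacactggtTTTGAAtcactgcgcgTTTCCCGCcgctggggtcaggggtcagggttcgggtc
Kpna4 promoter: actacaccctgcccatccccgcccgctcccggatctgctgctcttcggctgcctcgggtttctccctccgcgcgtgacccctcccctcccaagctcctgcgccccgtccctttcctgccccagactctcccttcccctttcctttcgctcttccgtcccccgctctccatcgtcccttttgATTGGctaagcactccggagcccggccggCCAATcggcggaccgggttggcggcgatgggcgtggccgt
Xpo5 promoter: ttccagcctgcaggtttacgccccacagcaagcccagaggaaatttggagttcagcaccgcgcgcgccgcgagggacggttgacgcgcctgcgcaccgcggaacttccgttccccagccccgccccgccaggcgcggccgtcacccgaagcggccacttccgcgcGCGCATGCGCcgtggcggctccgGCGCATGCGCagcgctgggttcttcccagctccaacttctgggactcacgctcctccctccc
Kpna2 holds a CCAAT box 25 bases and a CHR on the other strand 35 bases before the start, and Ranbp1 a CCAAT box, a CHR and an E2F match at 72, 53 and 37 bases, with an NRF1 match at 139. Kpna4 holds 2 CCAAT boxes, at 69 and 40 bases on opposite strands, and Xpo5 holds 2 NRF1 runs, which begin 85 and 62 bases before the start. Over the 52 member windows a CHR occurred in 13 windows (25%), CCAAT in 44.2%, an E2F match in 3.85% and NRF1 in 11.5%, against 16.0%, 33.8%, 1.30% and 2.26% of 32851 windows of the same length over all genes. The E-box occurred in 13.5% of member windows and 6.02% of all. By call, the 2 E2F matches were in 2 of 13 windows of genes that fell (Ranbp1 and Nup210) and 0 of 16 of genes that rose. A CHR was in 2 of 13 and 3 of 16, CCAAT in 6 and 4, NRF1 in 3 and 1, and the E-box in 2 and 2. Of 20 windows of genes not called, 11 held CCAAT, 7 a CHR, 2 NRF1, 2 an E-box and 0 an E2F match. These are matches of letters, with 62.0% GC in member windows against 52.4% in all, and are given as a description.

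Symbols that match by prefix alone were kept apart. Nupr1 is a stress-induced chromatin protein and no nucleoporin; it had 0 to 9 counts at P6 and 4 to 13 at P30 and was not tested. Nup62-il4i1, a read-through name, had at most 5 counts in a library.

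Other transport genes and messenger RNA export factors differed in the direction of their calls. Of 11 tested transport factors outside the members, 6 rose (54.5%) and 1 fell (9.09%), against 26.3% and 27.8% of all tested genes. The 6 include Ahctf1, which is a pore subunit. Their median log2 fold change was 0.37, and library totals gave 2 higher and 2 lower. Tnpo3, the importer of splicing factors, had 99.4, 87.2, 94.1 and 83.1 CPM at P6 and 141, 130 and 127 CPM at P30, and Ranbp6, an importin relative, rose from 50.6 ± 7.41 to 65.1 ± 4.90 CPM, with overlapping libraries. The rise of Ranbp6 was lost when P6c, P6d, P30a or P30b was left out, with library totals and with the length trend removed (adjusted p up to 0.22). Ranbp17, an exportin relative, fell from 4.05 ± 0.765 to 1.21 ± 0.212 CPM, and Cse1l, which returns importin alpha to the cytoplasm, had 110 ± 7.65 and 120 ± 6.55 CPM and did not pass. Of 22 messenger RNA export genes, 13 fell (59.1%) and 1 rose (4.55%), with a median of -0.39, and 8 fell without P30a or without P30b. Ddx39b, a helicase of the export complex, fell from 107 ± 10.6 to 79.7 ± 17.7 CPM with overlapping libraries, and Nxf1, the main export receptor, had 96.3, 88.7, 80.7 and 73.4 CPM at P6 and 66.3, 60.8 and 71.5 CPM at P30. The fall of Ddx39b did not pass without P6a, P6b, P6c, P30a or P30b or with the length trend removed (adjusted p up to 0.13), nor that of Nxf1 without P6a, P30a or P30b (up to 0.099). Ddx19b, a helicase that releases messenger RNA at the cytoplasmic face, rose from 22.7 ± 3.32 to 30.5 ± 3.03 CPM, but did not pass when P6a, P6d, P30a or P30c was left out, with library totals or with the length trend removed (adjusted p up to 0.20). Of 21 nuclear envelope and lamina genes, 8 rose (38.1%) and 6 fell (28.6%), with a median of 0.05, or 5 and 9 with library totals. Tmem201, an inner membrane protein, had 172 to 207 CPM at P6 and 238 to 257 CPM at P30 (called except with library totals, adjusted p = 0.065), and Sun1, which links the lamina to the cytoskeleton, rose from 57.4 ± 7.55 to 95.9 ± 5.77 CPM. Lmna, the A-type lamin, fell from 259 ± 10.9 to 175 ± 3.69 CPM.

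The authors' deposited table, a DESeq2 comparison, gave 20 of the 57 members an adjusted p under 0.05 with a higher level at P30 and 12 with a lower one, where 42.9% of its 16500 genes with an adjusted p were under that threshold. Its direction was the same as edgeR's in 53 of 53 tested members, and the calls differed in 1, Nup88, with a log2 fold change of 0.20 and an adjusted p of 0.040 in the authors' deposited table.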

How the data were processed

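The authors deposited raw read counts per gene for 7 libraries of sorted cardiomyocytes. The submitters' processing notes list STAR 2.5.3a, CASAVA 1.8, Subread 1.5.2 with featureCounts, and the mm10 build; for strand, annotation and multi-mapping, settings were not given in the sources used here. Library columns carry letters, and each was placed in its group through the age that its name holds. The authors' log2 fold changes and adjusted p-values come from their deposited DESeq2 table, per the file headers.

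Counts were fitted with edgeR 4.0.16 in R 4.3.3 (filterByExpr, TMM factors, quasi-likelihood test of age), with Benjamini-Hochberg adjustment over 12561 genes. SE is the log2 fold change over the square root of F. CPM per kb used the longest coding transcript in GENCODE release M21. Alternatives were library totals, median-of-ratios factors, DESeq2 1.42.0, no filter, a loess length trend (span 0.5) removed, and each library left out. The test was checked on simulated counts. Within an age, pairs of libraries differed by a chi-square per gene of at least 12.3, so none was a plain copy of another's counts. This cannot show whether libraries came from separate animals. Genes described library by library are, in each role, the most counted called member, the called member with the largest change at 1 CPM or more and called members against the group's direction, plus Ran, Xpo1 and Kpnb1; from each further list, the 2 most counted in the prevailing direction and 1 in the other. Other genes were chosen after their values were seen. Members and lists were chosen with earlier results of these data known.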

Additional observations from a re-analysis of the deposited data

Results flagged for a closer look

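In 5 of 53 tested members 1 of the 4 P6 libraries lay apart from the rest by Dixon's criterion, which chance gives in about 1 of 20 groups. P6b was high for Nup205 (31.0 CPM) and Nup214 (44.1 CPM) and low for Kpna2 (59.3 CPM). P6a was high for Nup93 (60.7 CPM) and low for Nup50 (19.7 CPM). The falls of Nup93 and Kpna2 passed the test without these libraries too.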

How the results depend on the processing

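Of 31 called members, 22 kept direction and call in all 12 alternatives: 13 that rose (Nup160, Ranbp2, Kpna3, Kpna4, Kpna6, Ipo13, Ipo5, Ipo7, Kpnb1, Tnpo1, Xpo4, Xpo5 and Xpo7) and 9 that fell (Nup107, Seh1l, Nup93, Nup210, Kpna2, Ipo9, Ran, Ranbp1 and Rangap1). No call was reversed. With library totals 20 members were lower; pore genes gave 2 higher and 14 lower, other transport factors 2 and 2, nuclear envelope genes 5 higher, and messenger RNA export genes 0 higher, as also with the length trend removed. With 1 library left out, pore genes gave 3 to 6 higher (3 without P30a), and messenger RNA export genes 0 to 1 higher and 8 to 13 lower. Without the count filter Kpna7 was called on the 9 counts of P30a alone (adjusted p = 0.045). The causes of these shifts were not tested. Levels at or under 3 counts (0.0553 to 0.271 CPM, by library) are not resolved at this depth. No paired analysis was possible because the columns carry letters that the labels tie to no replicate number. Nor do the labels say that any of the 4 P6 libraries forms a pair with any of the 3 P30 libraries.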
